A study of Drosophila melanogaster with 3 samples.

Results

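The transcription factors that relay the steroid hormone ecdysone were followed in larval hearts lacking Hand. The set comprises 10 genes, chosen by CG number for their place in this hormone response, and 7 of them had a row among the 7498 genes measured. These were *usp* (CG4380), *Eip75B* (CG8127), *Eip78C* (CG18023), *br* (CG11491), *Hr39* (CG8676), *Hr4* (CG16902) and *Hr38* (CG1864). *EcR* (CG1765), *ftz-f1* (CG4059) and *Eip93F* (CG18389) had no row and were unmeasured here. Their numbers were also looked up in the RefSeq annotation, which gave no further number of these 3 genes with a row.

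Hearts of wandering larvae of the third instar were compared between w[1118], the wild type, and animals homozygous for the null allele hand[173]. Both lines were raised at 22 °C, and all larvae were immobilized in water of 60 °C for 15 seconds. The ends of the larvae and the inner organs were removed before the hearts were taken out, and the preparations held the heart tube with attached pericardial cells and muscle. RNA of about 100 heart tubes was combined into 1 pool per genotype, and the same pair of pools was hybridized to 3 arrays, with hand[173] RNA in Alexa Fluor 647 and w[1118] RNA in Alexa Fluor 555 on each of them. The methods call the arrays technical replicates, although the sample titles number them with an unexplained bR. The genotypes thus have no biological replicate, no dye swap was made, and no p-value is given for any gene. The SDs below describe the spread between arrays only.

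Ecdysone binds a heterodimer of 2 nuclear receptors, EcR and Usp, the fly counterpart of the vertebrate retinoid X receptors. The liganded dimer activates early genes such as *Eip75B* and *br*, whose products are themselves transcription factors, and these together with early-late receptors such as Hr4 and Eip78C control the timing of later genes. Pulses of the hormone end larval life, and the wandering stage precedes the pulse that triggers pupariation. During metamorphosis the larval heart is remodelled into the adult organ under control of this hormone.

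Each value is a log2 ratio of hand[173] over w[1118], with negative values where the transcript was less abundant in the mutant pool. In pooled tissue, fewer cells of a type and less RNA per cell cannot be told apart in such a ratio. Array 1 held values for 1372 genes, array 2 for 2650 and array 3 for 6459. The arrays differed in overall level, with medians of 0.97, 0.38 and -0.56 on the log2 scale for arrays 1 to 3. Each value is therefore also given centred, meaning after subtraction of the median of its array, and as a percentile, the share of values on that array that lay at or below it. The log2 ratios of arrays 2 and 3 were correlated (Pearson's r = 0.77 across 1982 genes, which share the RNA pools). Those of array 1 hardly were (r = 0.09 with array 2 and 0.14 with array 3). For a gene with values on arrays 2 and 3, the centred log2 ratios differed by a median of 0.42. The *hand* transcript itself was read by array 3 alone, at a log2 ratio of -0.16. Centred, this was 0.40, at the 72.0 percentile of that array. The extent of the deletion is not given in the sources used here, so the value does not check the genotype.

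Among the ecdysone response factors, *Hr4*, by the number CG16902, was the lowest in *hand* mutant hearts on both arrays that measured it. A further number that RefSeq assigns to *Hr4*, CG3600, lay above the median of array 3, the only array that measured it. *br* was low on arrays 2 and 3 but high on array 1. *Eip78C* and *Hr39* lay close to the middle of both arrays with a value. *usp*, *Eip75B* and *Hr38* were measured on 1 array each. Following the limits given in the methods, downregulation was scored where 2 or more arrays lay under 0.67-fold, and upregulation where 2 or more lay over 1.33-fold. Applied to the deposited values, this scored 516 genes as downregulated and 244 as upregulated, more than the study lists in either direction. The calls given here are thus not the study's own list. Of the 4 factors with at least 2 values, *br* and *Hr4* were scored as downregulated, beside 20.5% of all 2517 genes with at least 2 values. None of the 4 was scored as upregulated, beside 9.69% of all genes. After centring, *br* and *Hr4* were again scored as downregulated and none as upregulated, beside 21.9% and 11.8% of all genes. With so few factors on 2 arrays or more, these counts do not set the group apart from all genes.

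**Figure D1:**
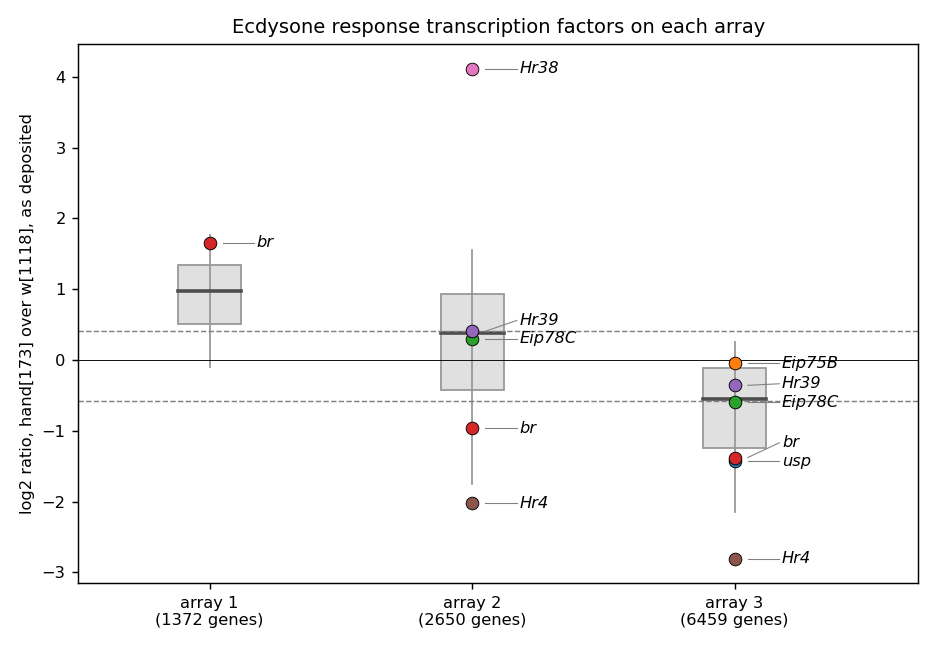
Log2 ratios of hand[173] over w[1118], as deposited, for the 7 measured ecdysone response factors on each of the 3 arrays. Grey boxes span the quartiles of all genes of an array with the median as a thick line, grey lines the range from the 10th to the 90th percentile, and dashed lines the limits of 0.67-fold and 1.33-fold. *Hr4* (CG16902) is the lowest factor on arrays 2 and 3, and *Hr38* on array 2 is far above all others. *br* lies high on array 1 and low on arrays 2 and 3.

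Of the receptor itself, only *usp* was measured. Its log2 ratio was -1.43 on array 3, a relative level of 0.371, while arrays 1 and 2 held no value. Centred on the median of array 3 it was -0.87, and 20.9% of the values of that array lay at or below it. A second array can place such a gene elsewhere. Of the 644 genes within 5 percentile points of *usp* on array 3, 128 also had a value on array 2, where the middle 50% of them spread from the 18.3 to the 37.2 percentile. Genes near *usp* on array 3 thus mostly stayed in the lower part of array 2, with a median at the 26.7 percentile. As a single value, *usp* could not be scored.

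*Eip75B*, an early gene encoding a nuclear receptor that binds heme, lay at the other end. Its only value was a log2 ratio of -0.05 on array 3, a relative level of 0.967. Since array 3 as a whole was shifted downwards, this value was 0.51 above its median, at the 78.6 percentile. On the deposited scale *Eip75B* was thus near equality, and on the centred scale it was 1.42-fold higher in the mutant. The direction for *Eip75B* therefore rested on the level assigned to the array. Of the genes within 5 percentile points of it, 234 had a value on array 2, with a median at the 65.2 percentile and quartiles at 51.5 and 80.0.

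*br* encodes the Broad zinc finger proteins, which carry a BTB domain and are required for entry into metamorphosis. It was the only one of these factors with a value on all 3 arrays. Arrays 1, 2 and 3 gave log2 ratios of 1.66, -0.96 and -1.38, corresponding to relative levels of 3.16, 0.513 and 0.385. The gene was thus past the upward limit on array 1 and past the downward limit on arrays 2 and 3. Over the 3 arrays the mean was -0.23 ± 1.65 (SD, n = 3 arrays), so that the spread exceeded the mean, and over arrays 2 and 3 alone it was -1.17 ± 0.29 (SD, n = 2 arrays). Centring did not remove the disagreement, as the centred values were 0.69, -1.34 and -0.82. In rank, *br* stood at the 87.3 percentile of array 1, the 18.4 of array 2 and the 22.1 of array 3.

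The value of *br* on array 1 was read against the other genes that were low on both other arrays. Array 1 covered 209 of the 501 genes that both other arrays placed under 0.67, and 135 of these (64.6%) lay over 1.33 there, against 77.6% of all values of array 1, an array whose median lay at 0.97. Apart from *br*, 23 of them reached at least its level on array 1, or 11.1%. After centring, 39 of 212 such genes (18.4%) lay over 1.33 on array 1 and 75 lay under 0.67, with a median of -0.24. Genes low on arrays 2 and 3 thus lay more often below than above the middle of array 1, and *br* was above it. Among genes with values on all 3 arrays, 45.3% were scored as downregulated, against 14.9% of those with exactly 2 values. As a gene with 3 values, *br* is to be read against the first of these shares.

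**Figure D2:**
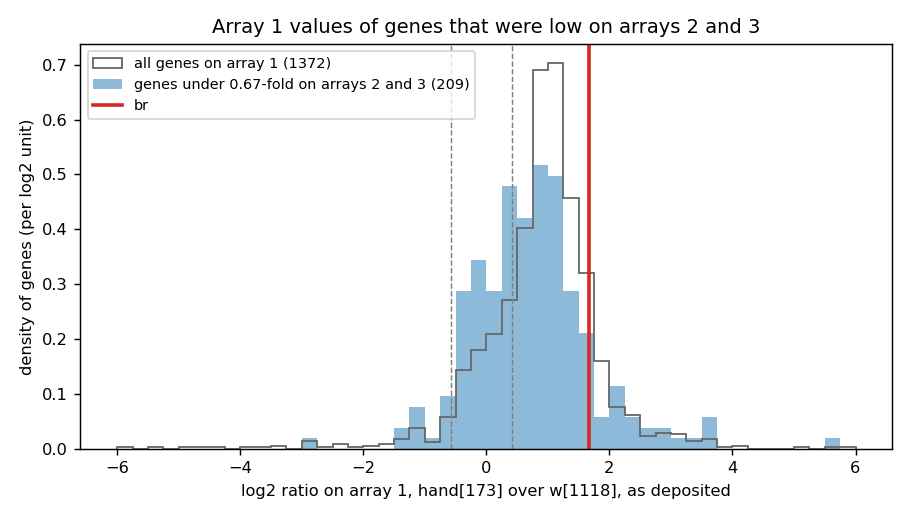
Distribution of log2 ratios on array 1, as deposited, for all 1372 genes of that array (outline) and for the 209 genes under 0.67-fold on arrays 2 and 3 (filled), as a density per log2 unit. The red line marks *br* at 1.66 and dashed lines the limits of 0.67-fold and 1.33-fold. The genes that were low on arrays 2 and 3 have a median of 0.73 on array 1, below the median of 0.97 over all genes of that array, and *br* lies above both.

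*Eip78C*, an early-late nuclear receptor gene, differed little from the bulk of genes. Array 2 gave a log2 ratio of 0.30 and array 3 one of -0.60, while array 1 held no value. The ratios of 1.23 and 0.662 fell on opposite sides of equality, and the second passed the downward limit by a small margin. Centred, the values were -0.08 and -0.04, at the 46.5 and 48.1 percentiles, so that both arrays placed *Eip78C* just below their medians. The mean was -0.15 ± 0.63 as deposited and -0.06 ± 0.03 after centring (SD, n = 2 arrays).

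*Hr39*, an orphan receptor gene related to *ftz-f1*, behaved alike. It had log2 ratios of 0.41 on array 2 and -0.36 on array 3, or relative levels of 1.32 and 0.780. Neither ratio passed a limit, and the first fell just short of the upward one. The centred values of 0.03 and 0.20, at the 51.4 and 60.6 percentiles, gave a mean of 0.11 ± 0.12 (SD, n = 2 arrays), which is no larger than the spread between the arrays.

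*Hr4* encodes an orphan nuclear receptor that represses early genes at the onset of metamorphosis and limits ecdysone pulses. The number CG16902 had a log2 ratio of -2.02 on array 2 and of -2.81 on array 3, or relative levels of 0.246 and 0.143. Both arrays with a value were far past the downward limit, and array 1 held none. The mean was -2.42 ± 0.56 as deposited and -2.33 ± 0.10 after centring (SD, n = 2 arrays), a relative level of 0.199 against the median gene. The difference between its centred values, 0.15, was smaller than the median difference of 0.42 over all genes. In rank *Hr4* stood at the 7.85 percentile of array 2 and the 4.55 of array 3. By the mean of both centred values, 156 of 1982 genes lay lower, and 122 genes were as low or lower on both arrays. Of 246 genes in the lowest 10% of array 2 that also had a value on array 3, 204 (82.9%) were in the lowest 10% there too, as was *Hr4*. *Hr4* was also scored as downregulated when the mean log2 ratio had to pass (26.5% of all genes), at a 2-fold limit (16.8%), and when 2 arrays had to place it in their lowest 10% (8.86%), and *br* was scored by none of these rules. Both were scored by rules that allow no value from array 1, with 25.3% of all genes as deposited and 25.9% centred. Scaling of the centred arrays (21.3%) and a limit symmetric on the log scale (22.4%) gave the same 2 factors. Where all 3 arrays (2.15%), arrays 1 and 3 (2.45%) or arrays 1 and 2 (2.26%) had to pass, neither was scored. *Hr4* could pass none of these rules, as array 1 held no value for it.

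A further number, CG3600, is also assigned to *Hr4* by the RefSeq annotation and is counted outside the 10. It had a value on array 3 only, with a log2 ratio of -0.41 and a relative level of 0.751. On the centred scale this was 0.14, at the 57.6 percentile. The 2 numbers of *Hr4* thus differed on the same array, where CG16902 was among the lowest values and CG3600 lay above the median. Which part of the transcript each spot covers is not given in the sources used here.

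*Hr38*, the fly member of the NR4A family and a further partner of Usp, had the most extreme ratio of the set. Its log2 ratio was 4.12 on array 2, a relative level of 17.4, and no other array held a value. Centred, it was 3.74, at the 99.3 percentile. Of the 19 genes above *Hr38* on array 2, 57.9% lacked a value on array 3, against 25.2% of all genes of array 2. The 8 of them with a value on array 3 stood there between the 46.8 and 84.8 percentiles, with 7 of the 8 above its median. The upward limit was passed there by 0 of the 8 as deposited and by 4 of the 8 after centring. Of the genes within 5 percentile points of *Hr38* on array 2, 58 had a value on array 3, with a median at the 73.6 percentile and quartiles at 51.8 and 85.4. More than 50% of these genes thus lay in the upper part of array 3 too, while *Hr38* itself had no second value.

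Ordered by log2 ratio, the factors on array 3 ran from *Hr4* (-2.81) over *usp* (-1.43), *br* (-1.38), *Eip78C* (-0.60) and *Hr39* (-0.36) to *Eip75B* (-0.05). On array 2 the order was *Hr4*, *br*, *Eip78C*, *Hr39* and *Hr38*, so that the 4 factors measured on both arrays kept their order. The gaps between *usp* and *br* (0.05), *Eip78C* and *Hr39* (0.24) and *Hr39* and *Eip75B* (0.31) on array 3 were below the median difference between arrays of 0.42. Those below *usp* (1.38) and below *Eip78C* (0.78) were above it. Over the 4 factors on arrays 2 and 3, the median of the mean centred log2 ratio was -0.57, against 0.01 over all 1982 genes, and it lies between the values of *br* and *Eip78C*. On array 3, 4 of 6 factors were below the median of the array, and on array 2, 3 of 5. By construction, as many genes lie below the median of an array as above it. *Eip78C* counted as below by a small margin, at -0.04 on array 3 and -0.08 on array 2 after centring. With so few factors, neither these counts nor the median of -0.57 sets the group apart from all genes.

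**Figure D3:**
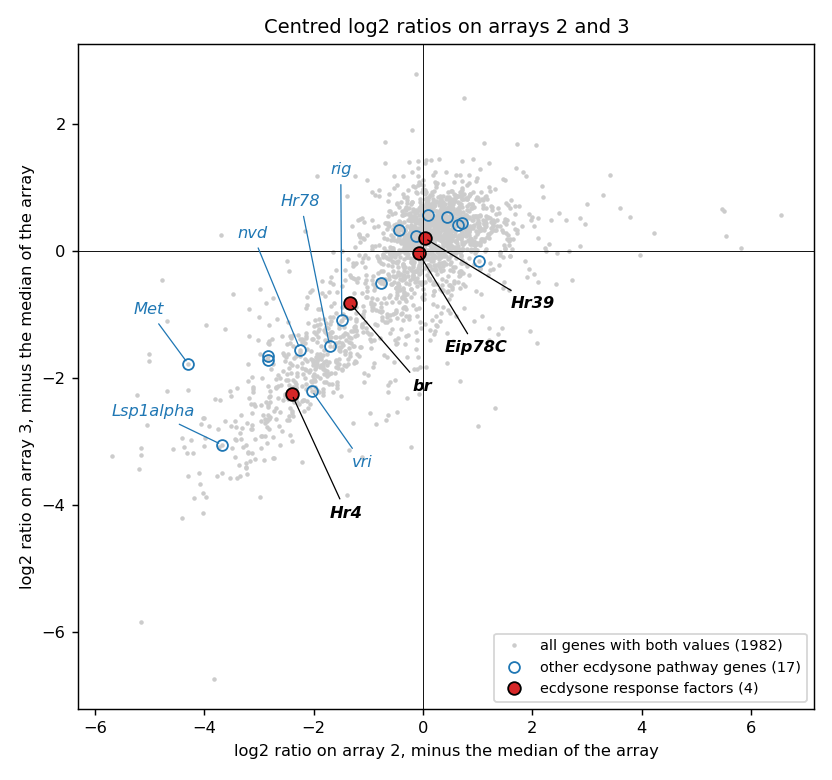
Centred log2 ratios on array 2 (horizontal) and array 3 (vertical) for 1982 genes with both values (grey), for 17 genes of the pathway lists, juvenile hormone genes included (blue circles), and for 4 ecdysone response factors (red). *Hr4* and *br* lie in the lower left arm of the cloud together with *nvd*, *Hr78*, *rig*, *vri*, *Met* and *Lsp1alpha* and the unlabelled glue genes *Sgs3* and *Sgs4*, whereas *Eip78C* and *Hr39* lie near the origin.

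The other genes were taken from 8 lists with 78 genes, covering hormone synthesis and turnover, cofactors of the receptor, the other nuclear receptors, further early genes, juvenile hormone genes, late genes, and glue and fat body genes. All are called pathway genes here for short, although the juvenile hormone genes and some of the nuclear receptors are not part of the ecdysone response itself. A row was present for 49 of them, and 21 had values on at least 2 arrays. Of these 21, 8 were scored as downregulated, or 38.1% beside 20.5% of all genes, and 2 as upregulated, or 9.52% beside 9.69%. The share depended on how many arrays held a value. Among genes with all 3 values, 5 of 7 were scored as downregulated beside 45.3% of all such genes, and among genes with exactly 2 values 3 of 14 were, beside 14.9%. The lists were chosen with earlier results of these data known, and few of their genes had 2 values or more. These shares thus do not set the lists apart from all genes. Over all rows of the lists, the median centred log2 ratio was 0.19 on array 1 (13 values), -0.17 on array 2 (24 values) and -0.16 on array 3 (41 values), where all genes have a median of 0 by construction.

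In hormone synthesis, *nvd*, which encodes the oxygenase of the first step from cholesterol, was scored as downregulated with log2 ratios of -1.87 on array 2 and -2.11 on array 3. It stood at the 9 and 10.3 percentiles. Of the 16 genes in this list, 9 had a row and 3 had values on at least 2 arrays. The other 2 of these, *dib* and *Npc1a*, were not scored, with log2 ratios of 1.01 and -0.16 for *dib* and 0.47 and 0.00 for *Npc1a* on arrays 2 and 3. Centred, the values were 0.63 and 0.40 for *dib* and 0.09 and 0.55 for *Npc1a*, so that both arrays placed both genes above their medians. The genes with 2 values in this list thus included low and high ratios.

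The cofactor gene *rig*, whose product binds EcR, was scored as downregulated with log2 ratios of -1.11 on array 2 and -1.64 on array 3. It was the only 1 of 6 cofactor genes with 2 values. Both arrays placed it at the 16.9 or 16.8 percentile, a close match in rank. Of 13 other nuclear receptor genes, 8 had a row and 2 had values on at least 2 arrays. *Hr78*, an orphan receptor gene, had log2 ratios of 0.59 on array 1, -1.33 on array 2 and -2.06 on array 3, and was scored as downregulated. Like *br*, *Hr78* was over the upward limit on array 1 as deposited, but unlike *br* it was below the median of that array, at the 27.4 percentile. *Hr3*, an early-late receptor gene that activates *ftz-f1*, had log2 ratios of 0.26 on array 2 and -0.33 on array 3. It was close to the array medians, with percentiles of 44.9 and 62.1, and thus resembled *Hr39* and *Eip78C* in its values.

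Among the further early genes, *vri*, which encodes a bZIP repressor of the circadian clock, had values on all 3 arrays. Its log2 ratios were -0.20, -1.66 and -2.76 on arrays 1, 2 and 3, at the 8.97, 10.7 and 4.81 percentiles. Of the scored genes with 3 values in these lists, *vri* had the lowest percentile on array 1, although it did not pass the downward limit there as deposited. *Met*, which encodes a receptor of juvenile hormone, was the lowest gene of the lists on array 2, with a log2 ratio of -3.92, and had -2.33 on array 3. Its percentiles were 0.717 and 8.12. Of 16 imaginal disc and late puff genes, 4 had at least 2 values and none was scored as downregulated. *Eig71Ee*, a late puff gene, was scored as upregulated with log2 ratios of 1.16 on array 1 and 1.09 on array 2, while array 3 gave -0.11. Centred, its values were 0.19, 0.71 and 0.44, so that all 3 arrays placed it above their medians.

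**Figure D4:**
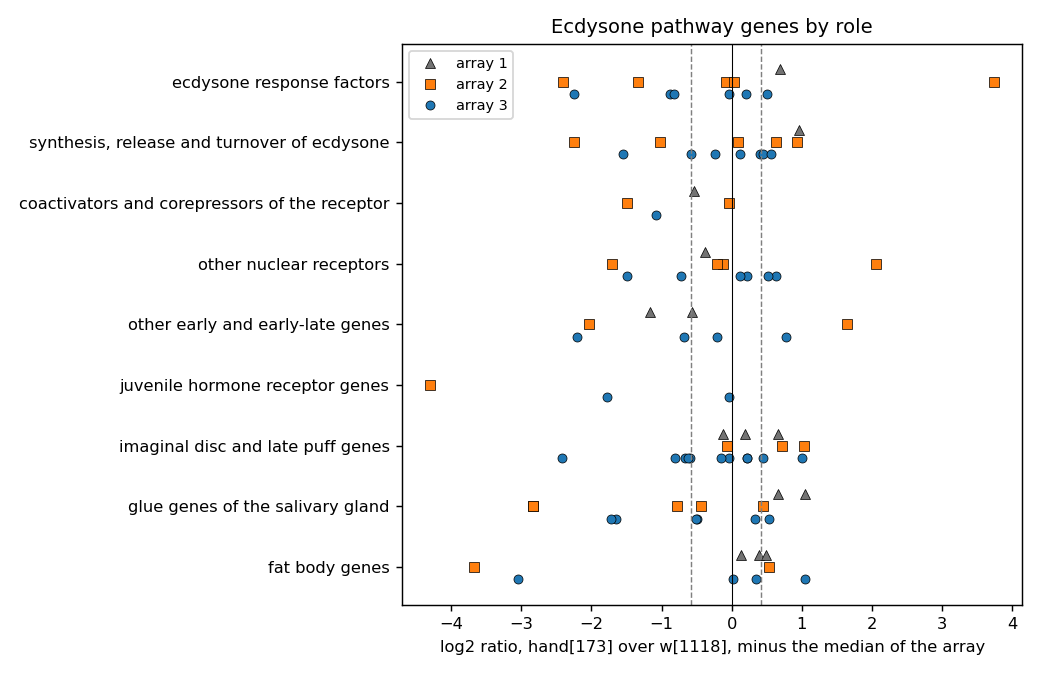
Centred log2 ratios of hand[173] over w[1118] for the ecdysone response factors and for 8 lists of other pathway genes, with 1 point per gene and array (triangles array 1, squares array 2, circles array 3). The vertical line marks the array median and dashed lines the limits of 0.67-fold and 1.33-fold. Most lists spread to both sides of the median, and *Hr38* on array 2 is the highest point at 3.74.

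The glue genes of the salivary gland and the larval serum genes of the fat body are known hormone targets of tissues outside the heart, and the dissection removed the inner organs. Of the 5 glue genes with at least 2 values, *Sgs3* and *Sgs4* were scored as downregulated. *Sgs3* had log2 ratios of 1.63, -2.46 and -2.21 on arrays 1, 2 and 3, and *Sgs4* had 2.01, -2.46 and -2.27. As deposited, both genes were high on array 1 and low on arrays 2 and 3, as *br* was. This alone was usual, since 64.6% of the 209 genes low on arrays 2 and 3 passed the upward limit on array 1. After centring, 39 of 212 such genes (18.4%) did. Centred, *Sgs3* was at 0.67 and *Sgs4* at 1.05 on array 1, beside 0.69 for *br*. The values of *Sgs3* and *Sgs4* on array 2 were identical, a value that 4 genes of that array shared. *Lsp1alpha*, a larval serum protein gene, also went from high on array 1 to low on the others, with 1.36, -3.30 and -3.61 as deposited. Centred, *Lsp1alpha* was at 0.39 on array 1, just short of the upward limit. It was 1 of 3 genes among the 6 fat body genes with at least 2 values. The other larval serum genes with a row were not scored as downregulated. Centred, *Lsp1gamma* was at 0.49 on array 1 and 0.35 on array 3, without a value on array 2. *Lsp1beta* and *Lsp2* had a value on array 3 alone, at 0.02 and 1.04 after centring. *Fbp1*, the fat body gene for a receptor of larval serum proteins, was scored as upregulated as deposited, with 1.10 on array 1 and 0.91 on array 2, but not after centring. *Sgs5* was scored as upregulated only after centring, with 0.44 and 0.53 on the centred arrays 2 and 3. Without the glue and fat body lists, 5 of 13 pathway genes were scored as downregulated, or 38.5% beside 20.5% of all genes. The part of tissue from outside the heart in the values of *br* and *Hr4* was not tested.

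Log ratios do not show how strongly a gene is expressed, so that the labelled tissue could not be checked by marker levels. Of 8 cardioblast marker genes 6 had a row, with centred values between -0.88 and 0.78 on array 3 (5 genes). Of 6 genes of pericardial nephrocytes 3 had a row, with centred values of 1.06 on array 2 (*sns*) and of -0.19 and 0.80 on array 3. Of 8 muscle genes 4 had a row, with 1.78 on array 2 (*Mhc*) and from -1.61 (*up*) to 0.79 on array 3. In these 3 lists only *Sur*, a cardioblast gene, had 2 values, and it was not scored. Of 7 genes of the ring gland, the source of ecdysone, 5 had a row. Among these *nvd* was scored as downregulated, *Akh* as upregulated with the values as deposited but not after centring, and *dib* was not scored. Their part in the result was not tested.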

How the data were processed

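The authors hybridized amplified, dye-coupled RNA to spotted arrays and acquired and normalized the scans with GenePix and Acuity. The deposited values are log2 ratios, with at most 1 for a gene on an array. The normalization method, the spot filter and the treatment of several spots of 1 gene are not given in the sources used here, and spot intensities were not used. The direction, hand[173] (Alexa Fluor 647) over w[1118] (Alexa Fluor 555), follows the dyes and is also the one under which the study's supplement lists its directions. The base was checked too. With 2 as the base, at least 97.5% of the values examined per array were 3-decimal ratios times 1 factor, within 0.02 thousandths, against at most 17.0% with e or 10.

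Factors were found by CG number, and other genes by symbol through RefSeq (Release 6 plus ISO1 MT, names only). The factors and lists were chosen with earlier results of these data known. Named were all factors, other pathway genes scored as deposited or centred, and other nuclear receptors with at least 2 values. Further genes (*dib*, *Npc1a*, *Sur*, *Akh*, *sns*, *Mhc*, *up*, *Lsp1gamma*, *Lsp1beta*, *Lsp2*) were named after their values were seen. Only the methods' scoring was applied, without a test, since 1 pool per genotype leaves no replicate. Sequences were not printed here. Scoring and centring were run on simulated data with large shifts and little noise, which checks the code but not how reliable the scoring is on these arrays. Python 3.11.15, numpy 2.4.6, pandas 2.3.3 and matplotlib 3.10.9 were used. The alternatives required all arrays or the mean ratio to pass, centred or scaled arrays, other thresholds, fewer genes, or 1 array less.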

Additional observations from a re-analysis of the deposited data

How the results depend on the processing

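Of the 4 ecdysone response factors with at least 2 values, 2 were scored as downregulated, *br* and *Hr4* (20.5% of all genes). The number was 0 of 1 when all 3 arrays had to pass (2.15%), where only *br* had the values. It was 1 of 4, each time *Hr4*, for the mean ratio (26.5%), a 2-fold threshold (16.8%) and the lowest 10% of an array (8.86%). Among genes with 3 values it was 1 of 1 (*br*, 45.3%), and among genes with exactly 2 values 1 of 3 (*Hr4*, 14.9%). With 1 array left out it was 2 of 4 without array 1 (25.3%). Without array 2 (2.45%) or array 3 (2.26%) it was 0 of 1, since *Hr4* then lacked a second value and array 1 held a high value of *br*. No setting scored a factor as upregulated, but *usp*, *Eip75B* and *Hr38* had 1 value each and could be scored by none. Of these, *Hr38* was high on array 2. *Eip75B* was near equality on array 3 as deposited and above the median after centring. The mean log2 ratio of *br* was -1.17 without array 1 and turned to 0.14 without array 2 and to 0.35 without array 3. That of *Eip78C* turned from -0.15 to 0.30 without array 3, and that of *Hr39* from 0.02 to -0.36 without array 2.

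Of the other pathway genes, 8 were scored as downregulated. There were 0 of 7 when all 3 arrays had to pass (2.15% of all genes) and 5 of 21 for the lowest 10% (8.86%). Among genes with 3 values there were 5 of 7 (45.3%), and among genes with exactly 2 values 3 of 14 (14.9%). With 1 array left out there were 8 of 17 without array 1 (25.3%), 0 of 9 without array 2 (2.45%) and 0 of 9 without array 3 (2.26%). The 2 scored as upregulated became 0 of 7 when all 3 arrays had to pass and 5 of 21 for the mean ratio. They became 1 of 21 after centring with scaling, 1 of 21 at a 2-fold threshold and 0 of 21 for the highest 10%. Among genes with 3 values there was 1 of 7, among genes with exactly 2 there was 1 of 14, and 0 to 2 with 1 array left out. The shares of all genes scored as upregulated in these settings are not given here, so the counts cannot be set against them. The settings with exactly 2 values, and with centred arrays without array 1, were chosen after the data were seen. Each ratio already sets both genotypes against each other on 1 array, so that no further pairing or replicate block was applied, and biological replicates are absent. The number of arrays and the unknown signal over background limit all values.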
